A study of Homo sapiens with 12 samples.

Results

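The 50 genes described here encode factors that build the large (60S) ribosomal subunit and the protein cores of the box H/ACA particles, and they were chosen by a fixed list of gene symbols. All 50 were found in the deposited table and all 50 passed the filter on low counts, among 16538 genes tested. They were sorted by known role into 9 groups: the PeBoW complex, early pre-60S assembly factors, 5S RNP loading factors, DEAD-box helicases, GTPases, AAA ATPases with their partners, export and late maturation factors, box H/ACA core proteins, and the abundant nucleolar RNA-binding proteins NCL and NPM1. Each value is the sum over the transcripts of 1 gene symbol.

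Large subunits are assembled in the nucleolus on the common precursor of the 28S and 5.8S rRNAs, to which the separately made 5S rRNA is added. Early factors fold and cut the precursor, helicases, GTPases and AAA ATPases drive the particle forward, and export adaptors carry it to the cytoplasm. Box H/ACA particles convert selected uridines of rRNA to pseudouridine, and dyskerin (DKC1) is their catalytic subunit. TRMT112, the gene manipulated in the study, encodes a cofactor that stabilizes and activates several rRNA and tRNA methyltransferases.

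Polysome-associated RNA, the RNA of mRNAs that carry several ribosomes, was sequenced from 3 established triple-negative breast cancer (TNBC) cell lines, giving 12 libraries in 6 groups of 2. MDA-MB-231 and SUM159 cells carried an EV CTRL construct (EV), which the study's methods describe as a non-silencing GIPZ shRNA plasmid, or a GIPZ shRNA plasmid against TRMT112 (KD), and both were selected with puromycin. BT549 cells carried an empty vector (EV) or a TRMT112 open reading frame in the pReceiver-M02 vector (OE), and both were selected with G418. MDA-MB-231 and SUM159 were grown in DMEM/F-12, SUM159 with added insulin and hydrocortisone, and BT549 in RPMI. Line and medium, and for BT549 also vector and selection drug, therefore cannot be told apart. Nothing in the sources says that the 2 libraries of a group came from separate cultures, so the p-values measure the spread between these libraries, which may be technical. No libraries of total RNA were used here, so the amount of an mRNA and its loading with ribosomes cannot be told apart, nor can fewer cells and less RNA per cell. Counts were scaled between libraries, so they show each mRNA relative to the other polysome-associated RNA and not its absolute amount. The study reports smaller polysome peaks in both KD lines and larger ones in OE, a change that such scaling removes.

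Total expected counts lay between 22954226 and 27434677 per library. TRMT112 itself followed the labels: normalized counts (counts scaled to the mean effective library size) were 4147 and 3938 in MDA-MB-231 EV against 1764 and 1682 in KD, 6332 and 6566 in SUM159 EV against 3909 and 3699 in KD, and 3076 and 3087 in BT549 EV against 4286 and 4319 in OE. The log2 fold change was -1.23 ± 0.04 (SE) in MDA-MB-231 KD, -0.76 ± 0.04 in SUM159 KD and 0.48 ± 0.04 in BT549 OE. Of the 3 receptor genes, ESR1 and PGR were at or near 0 in all 12 libraries and ERBB2 stood at 26.45 to 55.67 TPM (transcript level per length). The 7 epithelial markers summed to 852.5 to 940.8 TPM in MDA-MB-231, 469.3 to 562.9 in SUM159 and 1.3 to 2.8 in BT549, where KRT8 and KRT18 were near 0. Blood and endothelial markers summed to at most 3.9. The 4 mesenchymal-like markers, mostly VIM, with CDH2 at 0.11 to 0.35 in MDA-MB-231, summed to 1444.5 and 1404.4 in EV against 1355.4 and 1343.7 in KD of MDA-MB-231, 1964.9 and 1974.0 against 1583.6 and 1528.3 in SUM159, and 1724.8 and 1746.6 in EV against 643.2 and 638.0 in OE of BT549. In SUM159, VIM went from 1863.08 and 1868.34 TPM in EV to 1396.92 and 1335.9 in KD. KRT8 went from 208.75 and 206.18 to 337.08 and 322.95, KRT18 from 252.75 and 270.92 to 225.76 and 214.77, FN1 from 59.56 and 60.26 to 144.71 and 148.42, and KRT14 from 7.68 and 7.61 to 0. The part of these marker differences in the member changes was not tested.

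Levels of different genes were compared per transcript length, as TPM, in which the transcripts of each library sum to a fixed total. NPM1, a nucleolar chaperone of ribosomal proteins, had the highest mean over the 12 libraries at 2300 TPM, followed by the early factor EBNA1BP2 at 472.1, the box H/ACA protein NHP2 at 469.6 and nucleolin (NCL), which binds nascent pre-rRNA, at 274.5. The other role groups were led by RSL24D1 at 219.4, BOP1 at 197.1, WDR74 at 175.4, GNL3 at 159.3, DDX54 at 92.14 and RRS1 at 90.96. The lowest was MDN1, an AAA ATPase with 1 of the longest mRNAs, at 4.99 TPM. NPM1 and EBNA1BP2 thus stood above 99.8% and 97.8% of the genes tested, and MDN1 above 37.8%.

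The summed level of all 50 members was 7400 and 7411 TPM in MDA-MB-231 EV, while the KD libraries had 7021 and 7114. The sums were 8403 and 8421 in the EV libraries of SUM159, and the KD libraries had 5494 and 5616. BT549 held 5885 and 5922 with EV, and the OE libraries had 8072 and 8252. SUM159 thus held the highest sum of the 3 EV groups and, after KD, the lowest of the 6 groups. Without NPM1 and NCL the order of the 2 SUM159 groups was kept, at 5478 and 5494 in EV against 3739 and 3788 in KD, and those of BT549 were 3886 and 3896 against 5223 and 5264.

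In SUM159 KD, 46 of the 50 members were called lower and 3 higher with edgeR's quasi-likelihood test at an adjusted p-value under 0.05. Of all genes tested, 31.4% were called lower and 28.6% higher in that comparison, against 92.0% and 6.0% of the members. The median log2 fold change of the members was -0.84, with a range from -1.64 to 0.25, and that of all genes was 0.00. At least a 2-fold decrease was fitted for 18 members, and a fall of that size for 11.1% of all genes. MRTO4, NHP2 and NOP10 were the 3 members called higher, and NOP16 (0.02 ± 0.04, adjusted p = 0.67) was the 1 member not called.

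In MDA-MB-231 KD, 18 members were called lower and 9 higher, which is 36.0% and 18.0% of the members, against 16.5% and 21.2% of all genes tested. The median log2 fold change of the members was -0.05, and every member lay between -0.66 and 0.37. With the highest transcript of each gene only, 11 were lower, against 7.54% of all genes tested. With scaling by library size only, 5 were higher and 23 lower, against 14.3% and 24.7%. No member changed 2-fold. The 23 members not called ranged from NLE1 at -0.15 to DDX51 at 0.13. The TRMT112 decrease was the larger one in this line.

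In BT549 OE, 29 members were called higher and 11 lower, which is 58.0% and 22.0% of the members, against 35.6% and 35.0% of all genes tested. The median log2 fold change was 0.34 over the members and 0.02 over all genes, and the members spread from -1.30 to 1.57. RSL1D1, NIP7, MRTO4 and NOP10 rose at least 2-fold, and RRP1 fell by more than that. The 10 members not called were WDR12, RPF1, NOC3L, RPF2, GNL2, GTPBP4, LSG1, NVL, MDN1 and NMD3, from LSG1 at -0.11 to MDN1 at 0.16.

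**Figure D1:**
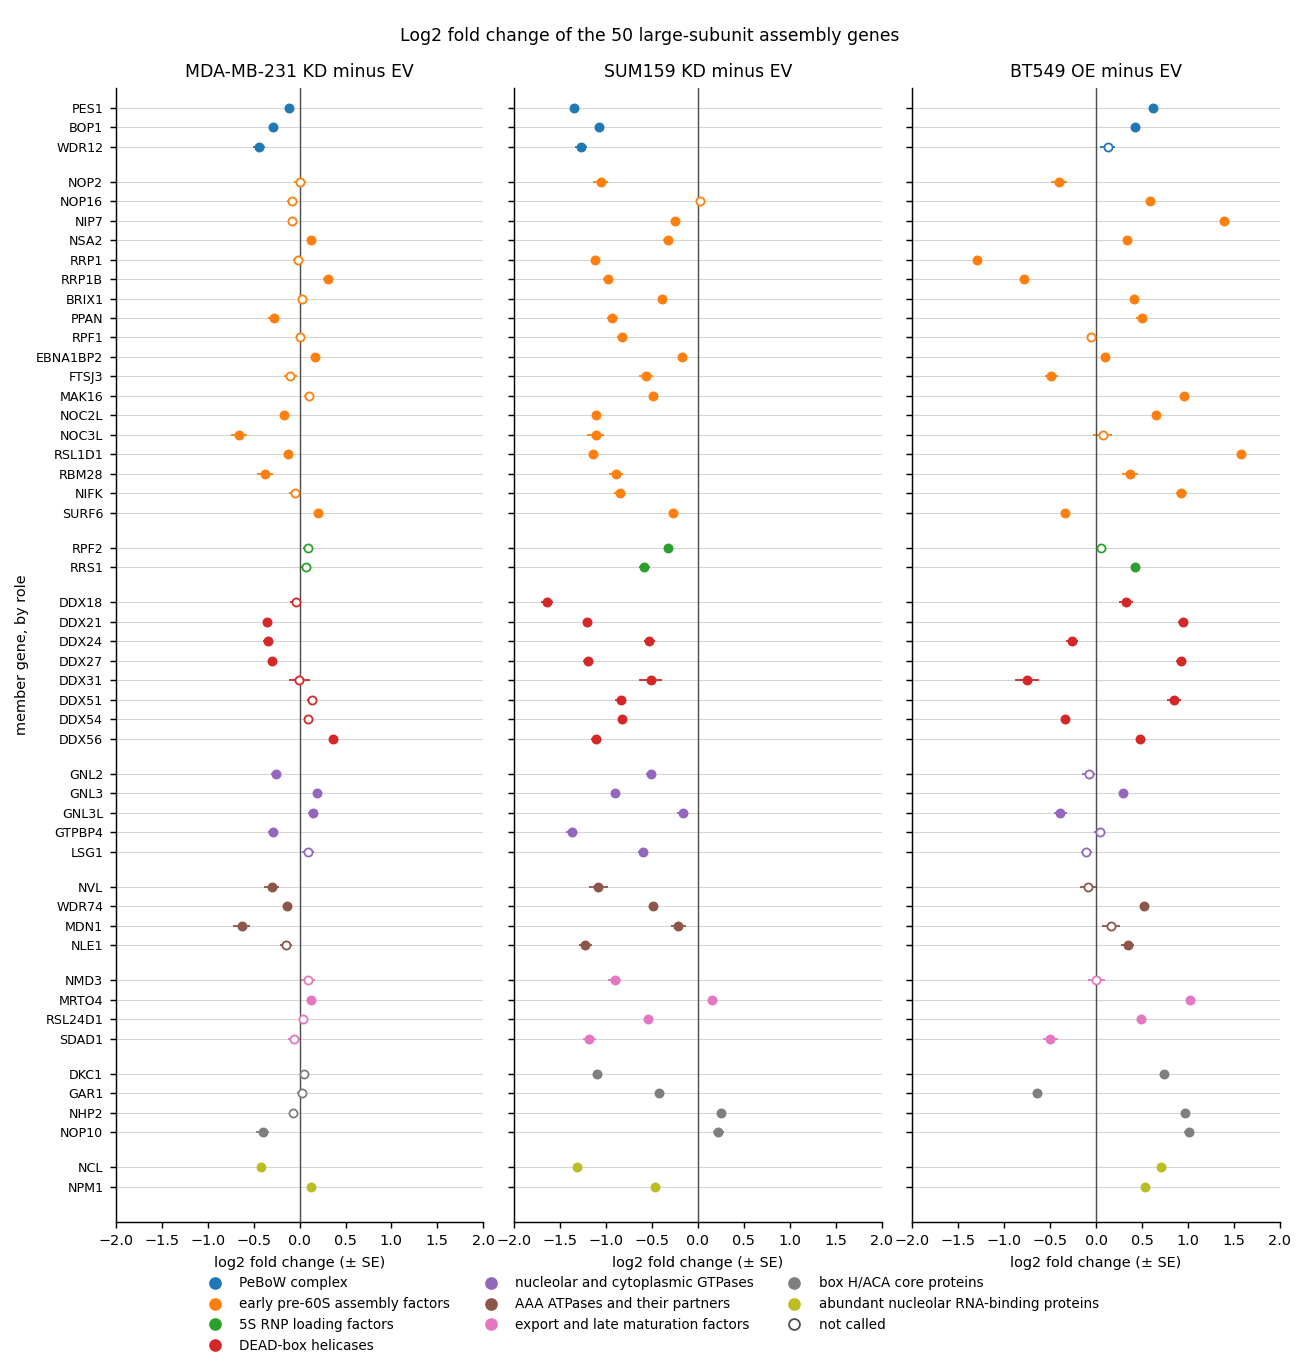
Log2 fold change (x axis, ± SE) of each of the 50 member genes (y axis, grouped and coloured by role) in MDA-MB-231 KD, SUM159 KD and BT549 OE, each against the EV libraries of the same line (n = 2 a group). Filled points were called at an adjusted p-value under 0.05. Nearly all points lie left of 0 in SUM159 KD, they lie on both sides between -0.66 and 0.37 in MDA-MB-231 KD, and they spread from -1.30 to 1.57 in BT549 OE.

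The PeBoW complex is needed to release the 5.8S and 28S rRNAs from their common precursor. It was lower in both KD lines for each of its 3 members, against 7.47% of all genes tested. PES1, its pescadillo subunit (chr22:30576625-30607083, GRCh38, minus strand), stood at 4591 and 4676 normalized counts in SUM159 EV and at 1801 and 1847 in KD. In MDA-MB-231 it stood at 2464 and 2398 in EV and 2226 and 2264 in KD, and in BT549 at 3330 and 3221 in EV and 5031 and 5004 in OE. The 2 libraries of a group lay close together and no EV library overlapped with its KD or OE libraries. Here and below, the share of all genes with such separation was not counted. With 2 libraries a group, the separation is a description only. The log2 fold change of PES1 was -1.34 ± 0.04 in SUM159 KD (adjusted p = 5.7e-19), -0.12 ± 0.04 in MDA-MB-231 KD (adjusted p = 0.020) and 0.61 ± 0.04 in BT549 OE (adjusted p = 2.1e-13).

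BOP1, the WD-repeat subunit that binds PES1, stood at 5529 and 5558 normalized counts in SUM159 EV and 2684 and 2566 in KD, at 7136 and 6977 in MDA-MB-231 EV and 5949 and 5575 in KD, and at 7696 and 7629 in BT549 EV and 10510 and 10080 in OE. Its groups did not overlap within any line, and its log2 fold changes were -1.08, -0.29 and 0.43. WDR12, the third subunit, stood at 1624 and 1566 in SUM159 EV and 648.2 and 674.6 in KD. In MDA-MB-231 it stood at 1066 and 1146 in EV and 844.1 and 783.3 in KD, which gave -0.44 ± 0.07 on the log2 scale, 1 of the 3 largest decreases among the members in that line. In BT549 OE it was not called (0.13 ± 0.08, adjusted p = 0.17), where the EV libraries held 476.3 and 543.7 and the OE libraries 557 and 555.8.

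**Figure D2:**
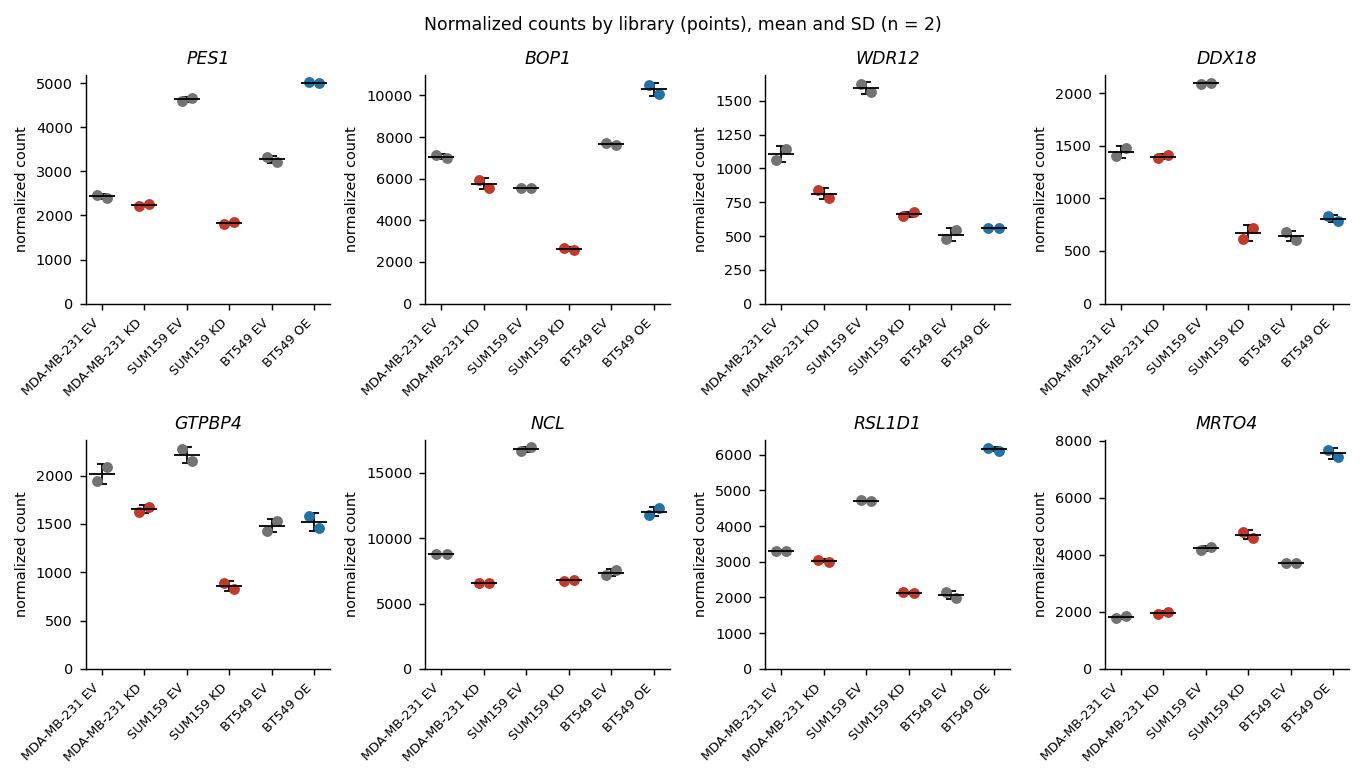
Normalized counts (y axis) of 8 members in the 12 libraries (points, coloured by EV, KD or OE), with the mean and SD of the 2 libraries of each group. In SUM159 the KD libraries of all but MRTO4 lie well below the EV libraries, DDX18 at 614 and 722.2 against 2085 and 2098, whereas RSL1D1 and MRTO4 have their highest counts in BT549 OE.

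Of the 18 early pre-60S assembly factors, 17 were called lower in SUM159 KD (94.4%, against 31.4% of all genes tested). The group median was -0.84 on the log2 scale. In MDA-MB-231 KD 5 were lower (27.8%, against 16.5% of all genes tested) and 4 higher (22.2%, against 21.2%). In BT549 OE 11 were higher (61.1%, against 35.6%) and 5 lower (27.8%, against 35.0%). The largest decreases in SUM159 KD were those of RSL1D1 (-1.15 ± 0.04), RRP1 (-1.12 ± 0.05), NOC3L (-1.11 ± 0.10), NOC2L (-1.11 ± 0.04) and NOP2 (-1.06 ± 0.08), a methyltransferase that adds 5-methylcytosine to 28S rRNA. The next were RRP1B (-0.98), PPAN (-0.93), RBM28 (-0.89), NIFK (-0.85), a partner of the Ki-67 protein, and RPF1 (-0.83). Decreases of under 0.6 on the log2 scale were fitted for the methyltransferase FTSJ3 (-0.56), MAK16 (-0.49), BRIX1 (-0.39), NSA2 (-0.33), SURF6 (-0.28), NIP7 (-0.25) and EBNA1BP2 (-0.17).

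NOC3L, which escorts the particle from nucleolus to nucleoplasm, showed the largest decrease of all members in MDA-MB-231 KD. Its normalized counts were 534.3 and 546.1 in EV and 364.4 and 318.9 in KD, a log2 fold change of -0.66 ± 0.09 (adjusted p = 2.3e-06). RRP1B and SURF6 were instead higher there, RRP1B at 2013 and 2045 in KD against 1653 and 1627 in EV (0.31 ± 0.05) and SURF6 at 2415 and 2409 against 2121 and 2071 (0.20 ± 0.04). In SUM159 RRP1B went the other way, from 2167 and 2136 in EV to 1146 and 1036 in KD. EBNA1BP2 moved little in any line, with 7000 and 6757 against 7636 and 7782 in MDA-MB-231, 9511 and 9546 against 8425 and 8491 in SUM159, and 9578 and 9843 against 10500 and 10320 in BT549, though each of these differences was called.

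In BT549 OE the early factor RSL1D1, a ribosomal L1 domain protein, had the largest increase of all members. It stood at 2139 and 1988 normalized counts in EV, and the OE libraries reached 6185 and 6112, a log2 fold change of 1.57 ± 0.04 (adjusted p = 1.1e-20). NIP7, a small protein that binds pre-60S particles, followed, rising from 2144 and 2207 to 5830 and 5638 (1.40 ± 0.05). In both KD lines the RSL1D1 libraries lay below EV, at 3058 and 3004 against 3310 and 3314 in MDA-MB-231 and at 2145 and 2114 against 4730 and 4690 in SUM159. NIP7 by contrast was not called in MDA-MB-231 KD (-0.08, adjusted p = 0.15). Further early factors that were higher in BT549 OE were MAK16 (0.95), NIFK (0.93), NOC2L (0.66), NOP16 (0.59), PPAN (0.50), BRIX1 (0.42), RBM28 (0.37), NSA2 (0.34) and EBNA1BP2 (0.10).

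RRP1 and its homologue RRP1B, both nucleolar proteins, were the members with the largest decreases in BT549 OE. RRP1 stood at 6897 and 6522 normalized counts in EV and at 2780 and 2685 in OE, a log2 fold change of -1.30 ± 0.04 (adjusted p = 1.5e-18). RRP1B stood at 3646 and 3520 in EV and at 2007 and 2164 in OE (-0.78 ± 0.05, adjusted p = 4.0e-13). Both also had their highest EV level in BT549, and RRP1 was 2.72 ± 0.05 higher there than in MDA-MB-231 EV on the log2 scale. The other early factors called lower in OE were FTSJ3 (-0.49), NOP2 (-0.41) and SURF6 (-0.34). FTSJ3, with a mean of 834.3 counts, overlaps PSMC5 on the other strand, with 6979, and RPF1, BRIX1 and NOP16 likewise overlap GNG5, RAD1 and HIGD2A, so their counts could hold reads of these genes.

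RRP1B (chr21:43659560-43696079) and RRP1 (chr21:43789513-43805293, both GRCh38, plus strand) lie 93434 bases apart on chromosome 21. The genes within 500000 bases of the pair were examined after these values were seen. Of 13 such genes tested, 7 were called lower in BT549 OE and 0 higher with edgeR (0 also at an unadjusted p under 0.05, and 0 with DESeq2), and over the 189 genes tested on chromosome 21 there were 46 lower and 88 higher, with a median log2 fold change of 0.32. The median of the 13 was -1.83, the value of AATBC, a gene with 0 to 11.07 normalized counts that was not called. Of the 9 with a mean of at least 50 normalized counts in BT549, a minimum set after the values were seen, 6 were lower and 3 not called, with a median of -1.43. PDXK and CSTB, which lie between RRP1B and RRP1, stood at 33200 and 33340 against 6848 and 6941 normalized counts and at 25500 and 25290 against 2980 and 2814 in EV and OE. AGPAT3, on the other side of RRP1, fell by 2.22 on the log2 scale and TRAPPC10 by 0.85. ICOSLG (-6.91) and SIK1 (-1.43) were called lower too. The part of the neighbourhood in the RRP1 and RRP1B values was not tested.

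**Figure D3:**
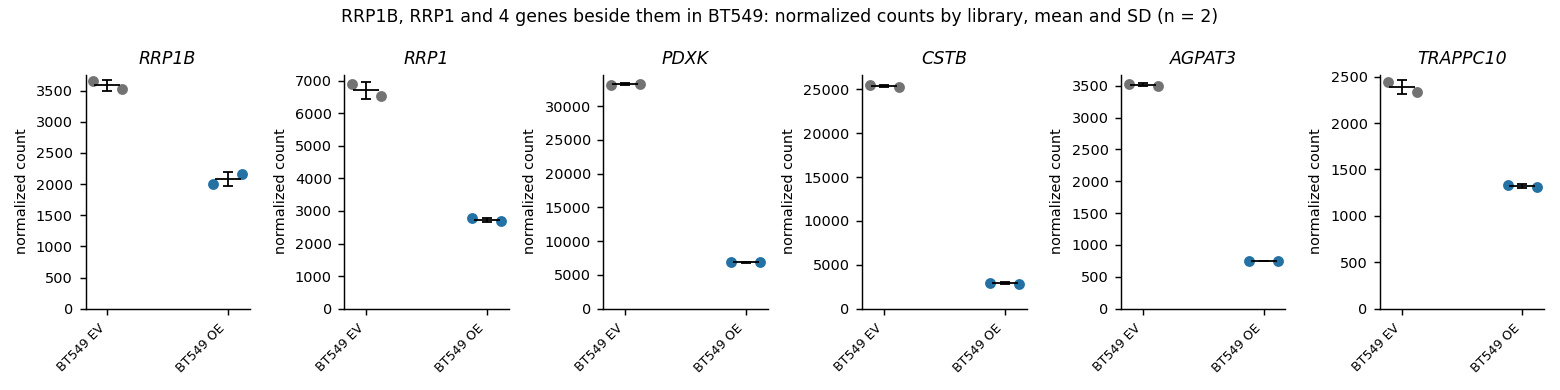
Normalized counts (y axis) of RRP1B, RRP1 and 4 neighbouring genes in the BT549 EV and OE libraries (points), with mean and SD (n = 2 a group). All 6 genes have their OE libraries below both EV libraries, CSTB at 2980 and 2814 against 25500 and 25290.

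RPF2 and RRS1, which bring the 5S rRNA with its ribosomal proteins into the particle, were both lower in SUM159 KD, by -0.33 and -0.58 on the log2 scale, and neither was called in MDA-MB-231 KD. RRS1 stood at 1115 and 1141 normalized counts in SUM159 EV and 766.2 and 739.5 in KD, at 1315 and 1236 in MDA-MB-231 EV and 1376 and 1298 in KD, and at 3687 and 3962 in BT549 EV and 5218 and 5044 in OE. Its MDA-MB-231 groups overlapped and the other groups did not. In BT549 OE RRS1 rose (0.42 ± 0.04) and RPF2 was not called (0.05, adjusted p = 0.30), and both partners had their highest EV level in BT549.

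All 8 DEAD-box RNA helicases, ATP-driven enzymes that remodel RNA, were called lower in SUM159 KD, against 31.4% of all genes tested. Their median was -0.98 on the log2 scale. DDX18 had the largest decrease of all members (-1.64 ± 0.07, adjusted p = 4.2e-16), from 2085 and 2098 normalized counts in EV to 614 and 722.2 in KD. The MDA-MB-231 libraries of DDX18, 1401 and 1479 with EV and 1380 and 1414 with KD, overlapped (-0.04, adjusted p = 0.63). DDX21, which binds both pre-rRNA and snoRNAs, fell in SUM159 from 6220 and 6270 to 2587 and 2800, and in MDA-MB-231 from 3940 and 4110 to 3228 and 3085, and it rose in BT549 OE from 1787 and 1939 to 3561 and 3602. DDX27, which acts on the 3′ end of the rRNA precursor, showed the same 3 directions, at -1.20, -0.30 and 0.92 on the log2 scale, and its groups did not overlap.

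DDX56 differed between the KD lines. It stood at 1933 and 1789 normalized counts in MDA-MB-231 EV and 2495 and 2302 in KD, the largest increase of all members in that line (0.37 ± 0.05, adjusted p = 2.1e-06). In SUM159 it stood at 2055 and 2059 in EV and 965.8 and 942.7 in KD (-1.11 ± 0.05). DDX54, the helicase with the highest level per length, went from 5346 and 5433 to 3031 and 3044 in SUM159, and it was lower in BT549 OE as well, at 4523 and 4476 against 5736 and 5599.

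DDX31 (-0.75 ± 0.13) and DDX24 (-0.26 ± 0.07) were the other helicases lower in BT549 OE. DDX31 stood at 407.3 and 402 normalized counts in EV and at 204.9 and 276.2 in OE, and the overlapping gene GTF3C4 on the other strand had a mean of 1440 against 325.8 for DDX31, so reads could be shared. DDX51, which acts on the 3′ end of 28S rRNA, was lower in SUM159 KD (-0.84) and higher in BT549 OE (0.85).

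All 5 GTPases were lower in SUM159 KD, against 31.4% of all genes tested. GTPBP4, the nucleolar GTPase also known as Nog1, stood at 2272 and 2155 normalized counts in EV and 892.2 and 822.5 in KD (-1.37 ± 0.06, adjusted p = 1.6e-15), the second largest decrease of the members. In MDA-MB-231 KD it was also lower (-0.29 ± 0.05), and in BT549 OE it was not called (0.04, adjusted p = 0.54). GNL3, or nucleostemin, fell in SUM159 from 5068 and 5034 to 2670 and 2731, whereas MDA-MB-231 went from 5057 and 5066 up to 5810 and 5744. The GNL3 libraries of the 2 lines thus started from nearly the same EV level and moved apart. The others fell in SUM159 KD by 0.60 for the cytoplasmic GTPase LSG1, 0.51 for GNL2 and 0.17 for GNL3L. In BT549 OE only GNL3 (0.29) was called higher and only GNL3L (-0.39) lower among the GTPases.

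Among the AAA ATPases and their partners, all 4 were lower in SUM159 KD (31.4% of all genes tested) and 3 in MDA-MB-231 KD (16.5%). NLE1 (-1.22), a substrate that MDN1 pulls from the particle, and NVL (-1.08), an AAA ATPase, fell most in SUM159. MDN1 was instead lower by more in MDA-MB-231, from 664.2 and 598.1 normalized counts to 427.2 and 388.3 (-0.63 ± 0.09), than in SUM159, from 935.6 and 931.9 to 745 and 863.1 (-0.21 ± 0.08). The difference of these effects was -0.42 ± 0.12 (adjusted p = 0.0070). WDR74, a partner of NVL, stood at 3834 and 3954 in SUM159 EV and 2841 and 2715 in KD, and it was also lower in MDA-MB-231 KD (-0.14 ± 0.04) and higher in BT549 OE (0.52 ± 0.04).

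The export and late maturation factors did not move together. NMD3, the adaptor for nuclear export, fell in SUM159 KD by 0.91 on the log2 scale and SDAD1 by 1.18, and RSL24D1, whose place is later taken by a ribosomal protein, went from 8235 and 7867 normalized counts to 5384 and 5690 (-0.54 ± 0.04). MRTO4, a placeholder for the stalk protein P0, rose in the same libraries from 4173 and 4273 to 4817 and 4598 (0.16 ± 0.04, adjusted p = 0.00065). It was higher in MDA-MB-231 KD too, at 1920 and 2006 against 1774 and 1839 (0.12 ± 0.04), and was the 1 member (2.0%) called higher in both KD lines, against 8.86% of all genes tested. In BT549 OE it rose from 3721 and 3726 to 7682 and 7427 (1.02 ± 0.04), so MRTO4 was higher in all 3 comparisons. SDAD1 was lower in OE (-0.50 ± 0.08) and NMD3 was not called (0.00 ± 0.10, adjusted p = 0.98).

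The 4 box H/ACA core proteins, which sit in 1 particle, split in SUM159 KD. DKC1 fell from 6071 and 6231 normalized counts in EV to 2904 and 2865 in KD (-1.09 ± 0.03, adjusted p = 1.8e-18), and GAR1 fell from 2442 and 2333 to 1722 and 1836 (-0.42 ± 0.04). NHP2 rose from 6574 and 6621 to 7978 and 7741 (0.25 ± 0.03, adjusted p = 5.8e-07) and NOP10 from 1214 and 1259 to 1476 and 1413 (0.22 ± 0.06, adjusted p = 0.0015). The groups did not overlap for any of the 4, a separation that was not counted over all genes. Per transcript length, the ratio of DKC1 to NOP10 in SUM159 dropped to 0.414 and 0.435 from 1.06 and 1.05.

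In MDA-MB-231 KD the split was another one. NOP10 fell from 766.7 and 705 to 576.2 and 536.6 (-0.40 ± 0.07, adjusted p = 4.9e-05), and DKC1 (0.05), GAR1 (0.03) and NHP2 (-0.07) were not called. In BT549 OE NOP10 (1.01 ± 0.06), NHP2 (0.97 ± 0.04) and DKC1 (0.74 ± 0.03) rose and GAR1 fell, from 2765 and 2715 to 1743 and 1757 (-0.65 ± 0.05). The ratio of DKC1 to GAR1 went from 0.926 and 0.947 in BT549 EV to 2.48 and 2.42 in OE.

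**Figure D4:**
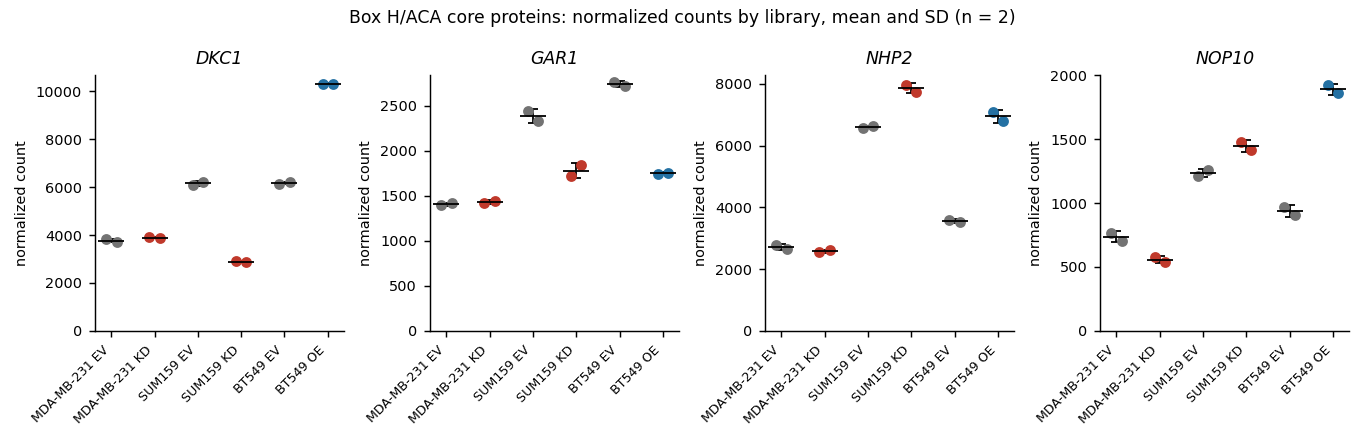
Normalized counts (y axis) of the 4 box H/ACA core proteins in the 12 libraries (points), with the mean and SD of the 2 libraries of each group. In SUM159, KD lies below EV for DKC1 and GAR1 and above it for NHP2 and NOP10, and in BT549 OE GAR1 is the 1 gene of the 4 that lies below EV.

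Of the abundant RNA-binding proteins, NCL fell in SUM159 KD from 16650 and 16950 to 6739 and 6797 normalized counts (-1.31 ± 0.03) and in MDA-MB-231 KD from 8772 and 8815 to 6599 and 6553 (-0.42 ± 0.03), and it rose in BT549 OE from 7170 and 7539 to 11780 and 12290 (0.71 ± 0.03). NPM1 fell in SUM159 KD from 42420 and 42930 to 30290 and 31270 (-0.47 ± 0.02), was higher in MDA-MB-231 KD at 43580 and 43190 against 39370 and 40190 (0.12 ± 0.02), and rose in BT549 OE from 36280 and 36480 to 52280 and 53170 (0.54 ± 0.02). The annotation names 49 pseudogenes after NPM1, so its counts depend on how the authors' counting divided reads between near-identical copies. RSL24D1 with 9 such pseudogenes, NIFK with 8, NSA2 with 7, DDX18 with 5, SDAD1 with 4 and NIP7 with 3 share this limit.

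The KD effects of the 2 lines were compared in the same model. The effect was higher (less of a decrease, or an increase) in MDA-MB-231 than in SUM159 for 44 members and lower for 3, MDN1, NHP2 and NOP10, against 27.7% and 23.2% of all genes tested. The median difference over the members was 0.67 on the log2 scale and that over all genes was 0.00. The members were called in opposite directions in the 2 lines in 9 cases, which is 18.0% of the members against 12.2% of all genes. DDX56, RRP1B, GNL3, NPM1, SURF6, NSA2, EBNA1BP2 and GNL3L rose in MDA-MB-231 and fell in SUM159, and NOP10 did the reverse. The largest difference among these 9 was that of DDX56, at 1.48 ± 0.07 (adjusted p = 6.2e-14), followed by RRP1B at 1.29 ± 0.07 and GNL3 at 1.09 ± 0.05.

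**Figure D5:**
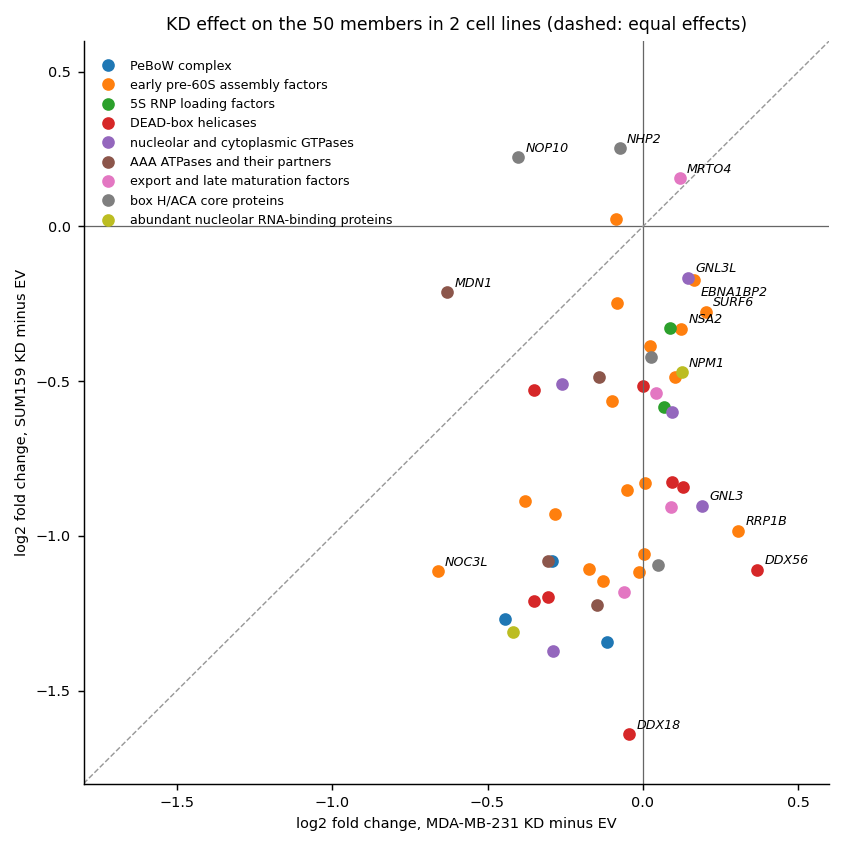
Log2 fold change of each of the 50 members (points, coloured by role) in MDA-MB-231 KD (x axis) and SUM159 KD (y axis), each against its EV libraries (n = 2 a group), with equal effects on the dashed line. Most points lie below the line, where 44 members have a KD effect that is higher in MDA-MB-231, and MDN1, NOP10 and NHP2 lie above it.

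Members lower in both KD lines and higher in BT549 OE, that is, in the direction of TRMT112 in all 3 lines, numbered 10, which is 20.0% of the members against 2.99% of all genes tested. The count was 5 with the highest transcript of each gene only, and 0 where each of the 3 changes also had to reach 0.5 on the log2 scale. No share of all genes was counted at these settings. The 10 were PES1 and BOP1 of PeBoW, the early factors PPAN, NOC2L, RSL1D1 and RBM28, the helicases DDX21 and DDX27, WDR74 and NCL. NOC2L, a nucleolar protein of the early particle, stood at 5117 and 5206 normalized counts in SUM159 EV and 2425 and 2371 in KD, at 3419 and 3344 in MDA-MB-231 EV and 3012 and 2977 in KD, and at 3239 and 3351 in BT549 EV and 5225 and 5153 in OE. PPAN, a member of the Brix family, stood at 2367 and 2333 against 1327 and 1148, at 1544 and 1424 against 1158 and 1281, and at 1697 and 1695 against 2476 and 2309 in the same pairs of groups. Neither gene had overlapping groups, and PPAN shares its locus with the read-through gene PPAN-P2RY11 on the same strand, which had a mean of 176.6 counts against 1703.

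With edgeR, 0 members were higher in both KD lines and lower in OE, also at an unadjusted p under 0.05 and with DESeq2, against 3.83% of all genes tested. A further pattern covered the 2 lines with the larger changes: 25 members were lower in SUM159 KD and higher in BT549 OE, against 11.0% of all genes, and 11 were lower in both, against 13.4%. The 11 were NOP2, RRP1, RRP1B, FTSJ3, SURF6, DDX24, DDX31, DDX54, GNL3L, SDAD1 and GAR1. Members lower in both KD lines numbered 17, against 7.47% of all genes tested. All joint counts here and in the paragraph before rest on the calls already counted per comparison. Of the members, 92.0% were lower in SUM159 KD, 58.0% were higher in BT549 OE and 1 member was higher in both KD lines. The joint counts are therefore no separate support.

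The EV libraries of the 3 lines differed in the members. Line and medium, and for BT549 also vector and selection drug, cannot be told apart in these differences. In SUM159 EV 36 members were higher and 10 lower than in MDA-MB-231 EV, against 39.2% and 36.4% of all genes tested, with a median log2 difference of 0.44. In BT549 EV 20 were higher and 27 lower than in MDA-MB-231 EV (39.1% and 40.4% of all genes), and 11 were higher and 32 lower than in SUM159 EV (37.7% and 40.7%). The highest of the 3 EV means was that of SUM159 for 28 members, BT549 for 12 and MDA-MB-231 for 10.

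The largest EV difference of a member was that of RRP1, 2.72 ± 0.05 higher on the log2 scale in BT549 than in MDA-MB-231. Of the genes around it, ICOSLG (5.40), CSTB (5.07), SIK1 (4.24), PDXK (2.98), TRAPPC10 (1.07) and AGPAT3 (0.755) had higher BT549 values in that comparison too. So had ENSG00000232124 (0.80) and HSF2BP (0.05). LINC00319 (-3.37), AATBC (-1.26), PWP2 (-0.64), PFKL (-0.22) and GATD3 (-0.13) had lower ones. Of these, LINC00319, AATBC and PWP2 had at most 21.51 normalized counts in any BT549 library. The part of the neighbourhood in the RRP1 difference was not tested. In BT549 EV, compared with SUM159 EV, RRS1 was 1.76 ± 0.05 higher, its partner RPF2 0.39 ± 0.04 higher and RRP1 1.67 ± 0.04 higher, and DDX51 (-1.90 ± 0.07), NMD3 (-1.86 ± 0.08), GNL2 (-1.75 ± 0.06) and DDX21 (-1.75 ± 0.04) were lower. Within PeBoW, WDR12 (-1.65 ± 0.07) and PES1 (-0.50 ± 0.04) were lower and BOP1 (0.47 ± 0.04) higher. DKC1 (0.00 ± 0.03), DDX27 (0.00 ± 0.05), EBNA1BP2 (0.03 ± 0.03) and NSA2 (-0.01 ± 0.05) were not called between these 2 lines.

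The table is per transcript, so the transcript classes of each member could be separated. Transcripts annotated as protein_coding held between 91.1% and 93.7% of the members' counts, close to the 93.4% to 94.0% over all protein-coding genes. Transcripts with a retained intron held 2.87% to 5.52% of the members' counts against 1.48% to 1.84% over all protein-coding genes, and without NPM1, the most abundant member, the other 49 members held 1.02% to 1.70%. The highest mean shares were 21.2% for MDN1, 18.5% for GAR1, 13.0% for DDX24 and 12.1% for NPM1. Transcripts annotated for nonsense-mediated decay held 1.90% to 3.26% of the members' counts against 3.20% to 3.66% over all protein-coding genes. The members with the highest decay-annotated shares were RSL1D1 at 35.1%, SDAD1 at 22.5% and RPF2 at 20.7%.

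The decay-annotated share of NCL, given here with no test, did not overlap between the groups of SUM159 or of BT549. Its decay-annotated transcripts held 19.22% and 16.24% of its counts in SUM159 EV and 8.918% and 8.762% in KD, and 17.46% and 17.8% in BT549 EV and 6.207% and 7.728% in OE. In MDA-MB-231 they held 19.35% and 17.84% in EV and 16.15% and 18.88% in KD, groups that overlapped. The share was thus lower both where NCL fell and where it rose. In SUM159 the decay-annotated share of DDX56 was instead higher in KD, at 18.66% and 20.98% against 9.856% and 6.057% in EV. That of NLE1 was higher too, at 11.03% and 12.97% against 6.343% and 8.307%. How many members or genes had such separation was not counted. Counting protein_coding transcripts only, the log2 fold change of NCL was -1.15 in SUM159 KD and 0.93 in BT549 OE. That restriction moved the log2 fold change by at most 0.1 for 50 of the 50 members in MDA-MB-231 KD, 47 in SUM159 KD and 43 in BT549 OE, and the largest move was that of MDN1 in BT549 OE, from 0.16 to -0.26. In SUM159 KD the largest was that of DDX56, from -1.11 to -1.32.

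Transcript length was set beside the changes because NOP10 and NHP2, with 507 and 780 bases in their highest transcript, are the shortest members. Across the 50 members, Spearman's rho of the log2 fold change with that length was -0.34 in SUM159 KD, -0.31 in BT549 OE and -0.11 in MDA-MB-231 KD. Across 13134 genes it was -0.09, -0.10 and 0.03. Genes share their libraries and are no independent replicates, so these values carry no p.

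A list of 39 further 60S assembly genes that are no members was described in the same way. In SUM159 KD 30 of them were lower (76.9%, against 31.4% of all genes tested) and 7 higher (17.9%, against 28.6%), the list median being -0.50 on the log2 scale. In MDA-MB-231 KD 16 were lower (41.0%, against 16.5%) and 6 higher (15.4%, against 21.2%), and the median was -0.11. In BT549 OE 20 were higher (51.3%, against 35.6%) and 15 lower (38.5%, near the 35.0% of all genes), and the median was 0.14. All 6 genes of the rixosome, which removes the second internal spacer, were lower in SUM159 KD, against 31.4% of all genes tested. LAS1L fell by 1.44 and PELP1 by 1.27 on the log2 scale. In BT549 OE 4 were higher (35.6% of all genes), PELP1 at 1.11. The other 2 were lower there (35.0% of all genes), TEX10 at -0.98 and LAS1L at -0.435. The histone chaperone NPM3, a relative of NPM1, was lower in MDA-MB-231 KD (-0.63 ± 0.05) and SUM159 KD (-0.83 ± 0.04) and had the largest increase of the list in OE (2.00 ± 0.05). EIF6 and SBDS, which act in the last cytoplasmic steps, were higher in all 3 comparisons, by 0.16, 0.22 and 0.27 for EIF6 and 0.13, 0.27 and 0.37 for SBDS. NAF1 and SHQ1, assembly factors of box H/ACA particles, were lower in SUM159 KD, as DKC1 and GAR1 were. In OE SHQ1 (0.23) was higher and NAF1 (-0.39) lower. ZNHIT6 was lower in SUM159 KD (-1.01) and higher in OE (0.63).

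Promoter windows of RefSeq (GRCh38.p14, 250 bases before to 50 after the annotated start) were found for 43 members, all but MAK16, RRP1B, DDX18, RPF2, BOP1, RRS1 and RSL1D1. The E-box CACGTG, which reads the same on both strands and is a known binding motif of MYC and related factors, occurred in the windows of 16 of these members, or 37.2%. It occurred in 12.2% of the 11857 tested genes with a window and in 8.77% of all 27305 symbols of the promoter table. Among the further 60S assembly genes described above, it occurred in 10 of the 35 with a window, or 28.6%. The motif lay before the start in 8 members and after it in 10, EBNA1BP2 and MDN1 having both. It is shown for 4 members because they share these letters and moved differently, DDX21 (higher) and DDX54 and DDX31 (lower) being helicases that parted in BT549 OE, and NOP10 being 1 of the 3 members higher in SUM159 KD. Capitals mark the motif, and each line gives the gene strand, 5′ to 3′, ending before the annotated start:
DDX21 (chr10:68956589-68956646, plus strand): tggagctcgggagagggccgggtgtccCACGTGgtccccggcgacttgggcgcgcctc
DDX31 (chr9:132669984-132670032, minus strand): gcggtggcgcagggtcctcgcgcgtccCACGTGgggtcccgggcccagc
DDX54 (chr12:113185507-113185566, minus strand): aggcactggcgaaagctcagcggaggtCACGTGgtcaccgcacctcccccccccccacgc
NOP10 (chr15:34343137-34343174, minus strand): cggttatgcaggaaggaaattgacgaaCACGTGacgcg

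The motif began 31 bases before the start in DDX21, 22 in DDX31, 61 in DDX54 and 11 in NOP10, where a second copy, not shown, began 170 bases before the start. On the log2 scale, the members with the motif had medians of -0.67 in SUM159 KD and 0.09 in BT549 OE, and those with a window but no motif -0.84 and 0.48. A match is a description of the window only. At the annotated start itself, 11.6% of the 43 members had a C followed by 4 letters that were C or T, against 7.1% of the tested genes with a window.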

How the data were processed

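Expected counts per Ensembl transcript were deposited by the authors without normalization. According to the methods and processing notes, the authors used Trimmomatic for trimming, HISAT2 for alignment to GRCh38, SAMtools to drop duplicates, and Partek. The counting tool, its annotation and its strand setting are not given in the sources used here, so overlapping genes on opposite strands may share reads. The labels name a poly(A) enrichment kit and the methods a stranded kit for rRNA-depleted total RNA. In 5.08% of rows the MDA-MB-231 and SUM159 columns hold a missing mark, whose unit was recorded as other and which was counted as 0.

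Transcripts were matched to GENCODE 44 without version numbers (79.6% of 201932, holding 99.25% to 99.41% of the counts), summed per symbol and rounded. Genes kept by filterByExpr were given TMM factors and fitted with edgeR 4.0.16 (R 4.3.3, quasi-likelihood, 1 model of 6 group means, 6 residual degrees of freedom, Benjamini-Hochberg adjustment over all 16538 genes, threshold 0.05). This fit also borrows information on the spread across genes, so the p-values do not rest on the residual degrees of freedom alone. The SE of a log2 fold change is its size divided by the square root of F. The median absolute log2 difference between replicates was 0.063 to 0.079. Other settings tried were RLE or library-size scaling, DESeq2 1.42.0, other filters and transcript classes, a replicate block, single-line fits and leaving out each library. The test was checked on simulated counts. Python 3.11.15, pandas 2.3.3 and matplotlib 3.10.9 were used. Replicate numbers were not used as pairs in the main model, and the sources do not say whether same-numbered libraries were processed together. Deviations of same-numbered libraries correlated at 0.0195, -0.0247 and 0.00376. With 1 difference between replicates per group, these values cannot settle whether the libraries were paired.

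The members and gene lists were chosen with earlier results of these data known. Genes given with values per library were those with the 3 largest called changes in each direction and comparison (mean of at least 50 counts), the most abundant of each role group, up to 6 in the direction of TRMT112 in all lines, and up to 6 called in opposite directions in the KD lines. Other members are given by counts, ranges and fold changes, and per-library values of some were added after their values were seen.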

Additional observations from a re-analysis of the deposited data

Results flagged for a closer look

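The KD effect differed between MDA-MB-231 and SUM159, by the interaction term of the edgeR model, for 44 members that were higher in MDA-MB-231 and 3 that were lower. Of all genes tested, 27.7% and 23.2% were called so, and 12.2% were called in opposite directions in the 2 lines. Among the 9 members called in opposite directions in the 2 lines, the effect in MDA-MB-231 minus that in SUM159 was 1.48 for DDX56, 1.29 for RRP1B, 1.09 for GNL3, 0.60 for NPM1, 0.48 for SURF6, 0.46 for NSA2, 0.34 for EBNA1BP2 and 0.31 for GNL3L on the log2 scale. For NOP10 it was -0.63. Each was past the threshold of adjusted p, and the KD reached a lower TRMT112 level in MDA-MB-231 than in SUM159. The depth of the decrease, the medium and the line itself cannot be told apart in this comparison.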

How the results depend on the processing

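The 24 single-member effects tested for stability kept their direction and their side of the threshold in each of the 21 or 22 alternatives run per effect, and the medians of the members moved by less than 0.1 under each. For counts, a further requirement of at least 0.5 in absolute log2 change left 0 members higher and 2 lower in MDA-MB-231 KD, 0 higher in SUM159 KD, 17 higher and 4 lower in BT549 OE, 1 member with a lower KD effect in MDA-MB-231 than in SUM159, and 0 in the direction of TRMT112 in all lines. No share of all genes was counted at this requirement. With the highest transcript only, 11 members were lower in MDA-MB-231 KD, against 7.54% of all genes tested. At that setting 5 members followed TRMT112, and the share of all genes that did was not counted. Scaling by library size only gave 5 higher and 23 lower in MDA-MB-231 KD, against 14.3% and 24.7% of all genes tested. There it moved the share of higher among all calls from 56.2% to 36.7%. Leaving out 1 library at a time, members called lower ranged from 15 to 18 in MDA-MB-231 KD, 44 to 46 in SUM159 KD and 11 to 12 in BT549 OE, members called higher from 6 to 9, 3 to 3 and 28 to 30, and members in the direction of TRMT112 from 7 to 11. The replicate block gave 10 higher and 19 lower in MDA-MB-231 KD, 3 and 46 in SUM159 KD and 29 and 11 in BT549 OE. With 2 libraries a group, the spread rests on 6 residual degrees of freedom shared by all lines and on information borrowed across genes. A library left out leaves 1 library assumed to vary like the others.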
